A study of Mus musculus with 22 samples.

Results

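Transcript levels of 37 complement and coagulation genes were followed in mouse liver. The 37 genes were a named list of hepatocyte-made complement components, clotting factors and their inhibitors, picked by gene symbol out of the 45777 genes counted in each library. All 37 were found and all 37 passed the filter on low counts in both cohorts, with no member below 673 counts (C6) in any library. By role, 7 belong to the classical and lectin pathways, 3 to the central and alternative pathway, 6 to the terminal pathway, 4 to fibrinogen and fibrin cross-linking, 5 to thrombin generation, 4 to the contact system, 4 to the coagulation inhibitors and 4 to fibrinolysis and vitronectin.

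The study measured liver polyA RNA of male wild-type C57BL/6J mice in 22 libraries, in 2 cohorts of 11 that each carry their own normal-diet group. In the first cohort 3 mice ate a normal diet with vehicle, 4 a high-fat diet (HFD) with vehicle and 4 a high-fat diet with DTMB. In the second, 4 ate a normal diet with vehicle, 4 a methionine- and choline-deficient diet (MCD) with vehicle and 3 the MCD diet with DTMB. DTMB, a code name, was dosed orally at 10 mg/kg each day. The labels name the HFD group as the fatty liver model and the MCD group as the steatohepatitis model. The sources used here give neither the age of the mice, the time on diet nor the vehicle, and no group received DTMB on a normal diet. The labels give the cohort as the batch.

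Complement is a cascade of plasma proteins that marks and lyses microbes. The classical and lectin pathways start at antibody or at sugars, meet the alternative pathway at C3, and lead to the terminal components, which assemble into a pore in the target membrane. Coagulation is a second plasma cascade, in which serine proteases activate one another until thrombin turns fibrinogen into fibrin, while antithrombin and protein C restrain it and plasmin dissolves the clot. Hepatocytes make most of the circulating protein of both systems, and several members are also acute phase genes that respond to interleukin-6.

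Libraries held 50.1 to 66.7 M counts, of which the 37 members made up 2.77% to 4.67%. The summed list of 20 pancreatic acinar transcripts exceeded 100 CPM (counts per M of total counts) in 6 libraries, namely normal-diet 1 and 3, HFD vehicle 1 and 4 and HFD DTMB 3 of the first cohort and normal-diet 4 of the second. Counts for the HFD cohort are therefore also given without these libraries. All 12 hepatocyte markers were detected in every group, and their summed level was 90244 to 139929 CPM over all libraries, with Alb and Ttr among them. Levels below are CPM over the TMM-scaled library size (TMM corrects for shifts in RNA composition) and were scaled within each cohort, so a level in one cohort is not comparable with one in the other. Changes are log2 fold changes ± SE from edgeR's quasi-likelihood test, called at a Benjamini-Hochberg adjusted p under 0.05 over all genes tested. In bulk liver, fewer cells of a type and less RNA per cell cannot be told apart.

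In normal-diet livers of the MCD cohort the members spanned a wide range of levels per length of transcript. Per kilobase of exon, the fibrinogen gamma chain Fgg was highest at 1731 ± 339 CPM per kb (SD, n = 4), followed by C3, the component on which all activation pathways meet, at 1508 ± 377 CPM per kb. Fga, Vtn (vitronectin) and Fgb followed, and the SDs of these first 5 overlapped. Plg, the precursor of plasmin, stood at 957 ± 62.05 and F2, the precursor of thrombin, at 846 ± 44.1 CPM per kb. The terminal components were spread over the order, with C9 at 402 ± 53.5, C8g at 237 ± 25.1, C8b at 229 ± 22.8 and C8a at 219.6 ± 20.6 CPM per kb, and the last 3 did not differ beyond their SDs. Hc, the C5 gene, was at 171 ± 18.2 and C6 at 76.2 ± 15.9 CPM per kb. The lowest were F11 at 40.1 ± 6.39, the protein S gene Pros1 at 17.2 ± 3.35 and Masp1 at 11.7 ± 1.21 CPM per kb.

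On the MCD diet, 31 of the 37 members fell and 1 rose, F5. Among all 16037 genes tested, 41.3% were called, 20.3% higher and 21.0% lower. The members' median log2 fold change was -0.94 and their range -3.80 to 0.34, against a median of 0.0039 for all genes tested, and 16 members changed at least 2-fold. The summed level of the 37 members on the TMM scale was 44305 ± 5690 CPM (SD, n = 4) on normal diet, with normal-diet replicate 1 the highest at 52237 CPM, and 26583 ± 2834 CPM (SD, n = 4) on MCD. As a share of raw counts the members made up 3.13% to 4.67% on normal diet and 2.95% to 3.16% on MCD with vehicle, and these ranges overlapped. Libraries of the 2 groups did not overlap for 31 members that were lower and 1 that was higher on MCD, against 19.9% and 17.8% of all genes tested. The 5 members without a call were F9, Pros1, Cfb, C3 and Kng1.

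**Figure D1:**
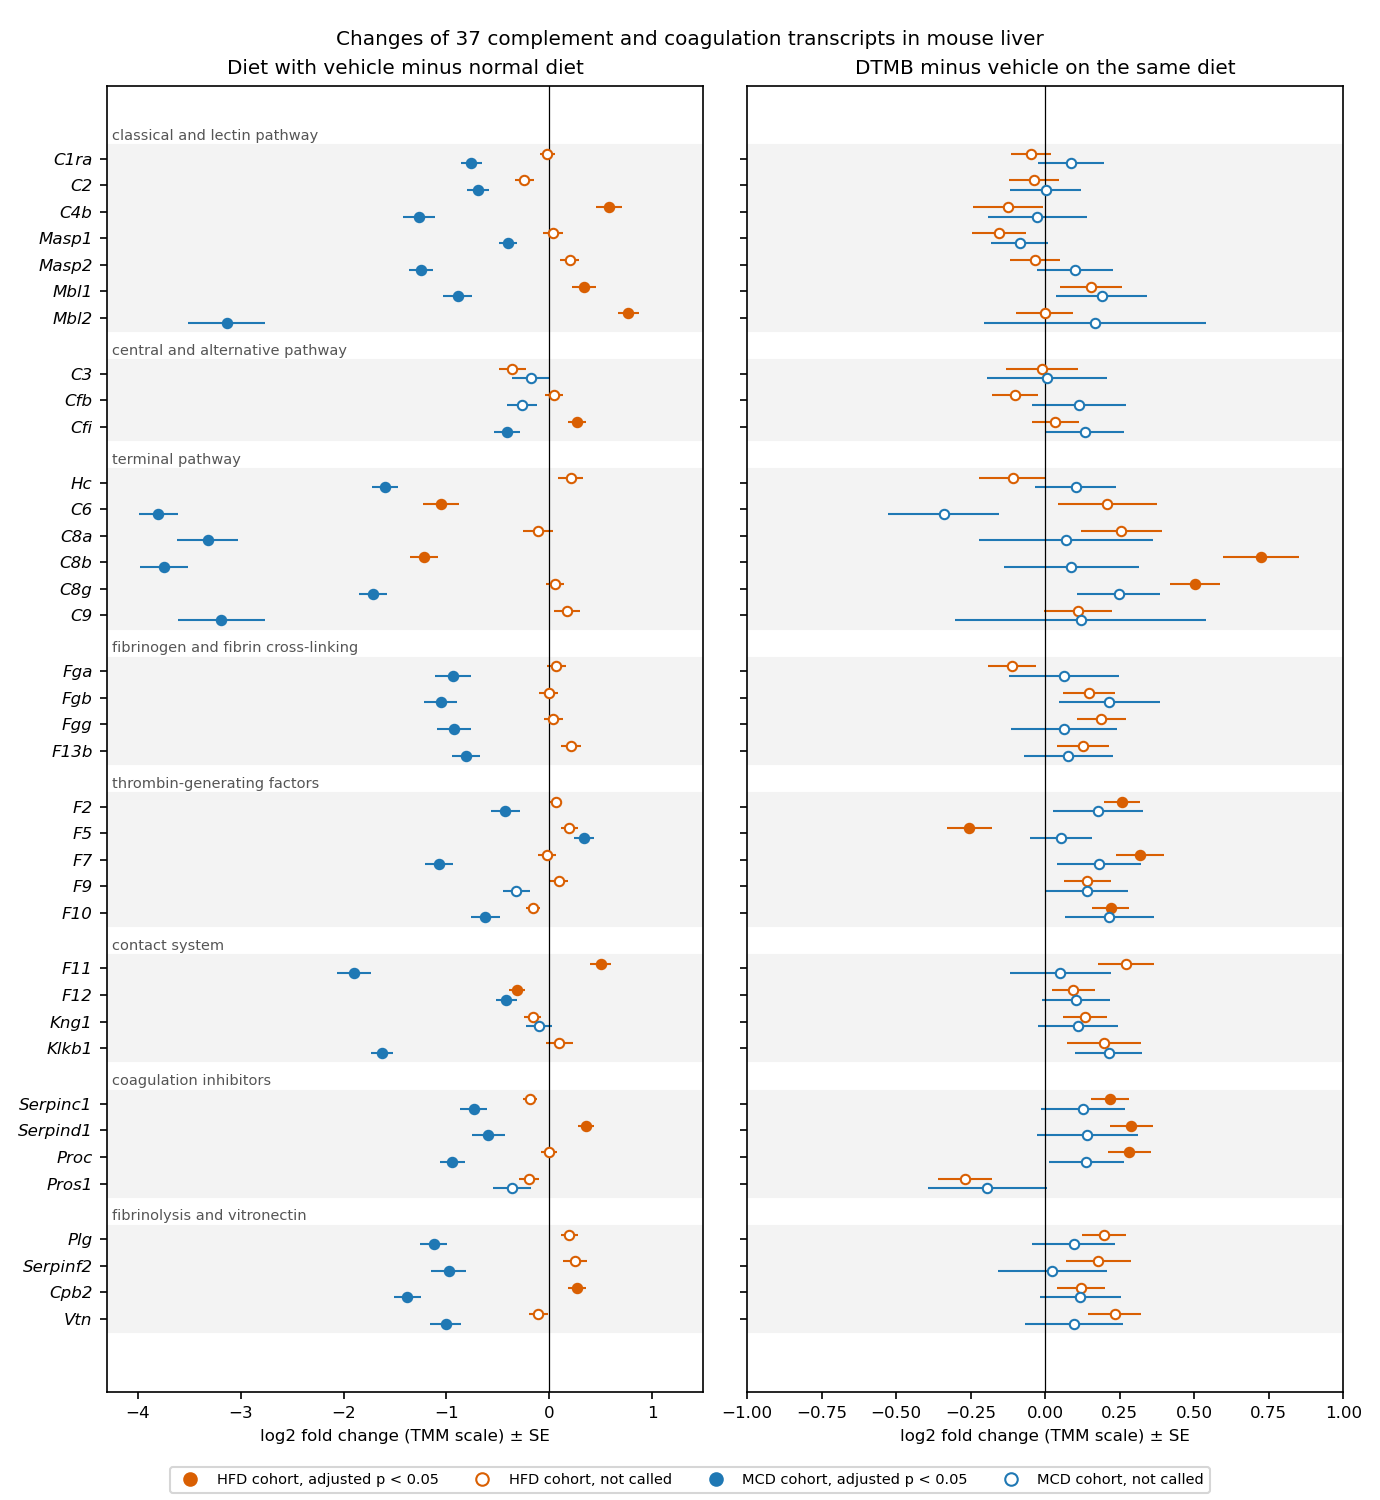
Log2 fold changes ± SE of the 37 members, grouped by role, for each diet with vehicle minus normal diet (left) and DTMB minus vehicle on the same diet (right). Filled points have an adjusted p under 0.05: 31 MCD points lie left of 0 in the left panel, led by C6 at -3.80, and 0 MCD points are filled in the right panel.

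The terminal pathway held the steepest falls: 6 of its 6 members were lower, with a median log2 fold change of -3.26. Its products follow one another in the pore: Hc encodes C5, whose cleavage starts assembly, C6 binds next, C8 (alpha, beta and gamma chains, from C8a, C8b and C8g) joins and its alpha chain enters the membrane, and copies of C9 complete the ring. C6 (chr15:4727067-4804045) was measured at 278, 238, 207 and 335 CPM in the 4 normal-diet libraries and at 17.9, 16.98, 21.4 and 19.5 CPM in the 4 MCD vehicle libraries. Every MCD library was far below every normal-diet library, and the change was -3.80 ± 0.19 (edgeR's quasi-likelihood test, adjusted p = 2.66e-07). C8b (chr4:104766317-104804548) was at 508, 518, 449 and 574 CPM on normal diet and at 33.9, 33.2, 35.8 and 49.2 CPM on MCD. The groups were again far apart, with a change of -3.75 ± 0.23 (edgeR, adjusted p = 8.62e-07). C9 (chr15:6445346-6498825) was at 809, 811, 704 and 970.1 CPM on normal diet and 26.3, 141, 110.3 and 83.3 CPM on MCD. The lowest MCD library, replicate 1, and the highest, replicate 2, differed severalfold, yet both were far below normal diet, and the change was -3.19 ± 0.42 (edgeR, adjusted p = 1.41e-04). C8a fell by a similar amount (-3.32 ± 0.30, adjusted p = 8.26e-06), and C8g (-1.72 ± 0.13, adjusted p = 3.39e-06) and Hc (-1.60 ± 0.13, adjusted p = 4.02e-06) fell less steeply.

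In the lectin and classical pathways 7 of 7 members fell, with a median of -0.89. Mbl2 (chr19:30232906-30239687), a mannose-binding lectin that recognises microbial sugars, was at 569, 339, 351 and 355 CPM in normal-diet livers and at 77.0, 31.5, 21.3 and 53.6 CPM on MCD. Normal-diet replicate 1 was higher than the other normal-diet libraries, but every MCD library lay well below all of them, and the change was -3.14 ± 0.37 (edgeR, adjusted p = 6.28e-05). Its paralog Mbl1 fell less (-0.89 ± 0.14), as did Masp2, the lectin pathway protease that cleaves C4 (-1.25 ± 0.12, adjusted p = 1.41e-05). C4b, the C4 gene, changed by -1.26 ± 0.16, the C1r protease gene C1ra by -0.76 ± 0.10, C2 by -0.69 ± 0.11 and Masp1 by -0.40 ± 0.088. C4b and C1ra have near-identical copies, C4a and C1rb, and the treatment of reads shared between copies is not stated, so their values are uncertain for the single copy. The copies were also lower, C4a by -1.18 ± 0.15 and C1rb by -0.75 ± 0.11.

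At the centre of the cascade the pattern differed: only 1 of 3 members, the C3b-degrading protease Cfi (-0.41 ± 0.12, adjusted p = 0.0194), was called. C3 (chr17:57203967-57228136) was at 10589.9, 6879.8, 7258 and 6263 CPM on normal diet and at 5879, 6084, 7467 and 7940.4 CPM on MCD. These ranges overlapped, with normal-diet replicate 1 above all other libraries, and the change of -0.18 ± 0.19 did not pass (edgeR, adjusted p = 0.463). Factor B, Cfb, the alternative pathway protease, changed by -0.26 ± 0.15 (edgeR, adjusted p = 0.169) and its libraries also overlapped.

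**Figure D2:**
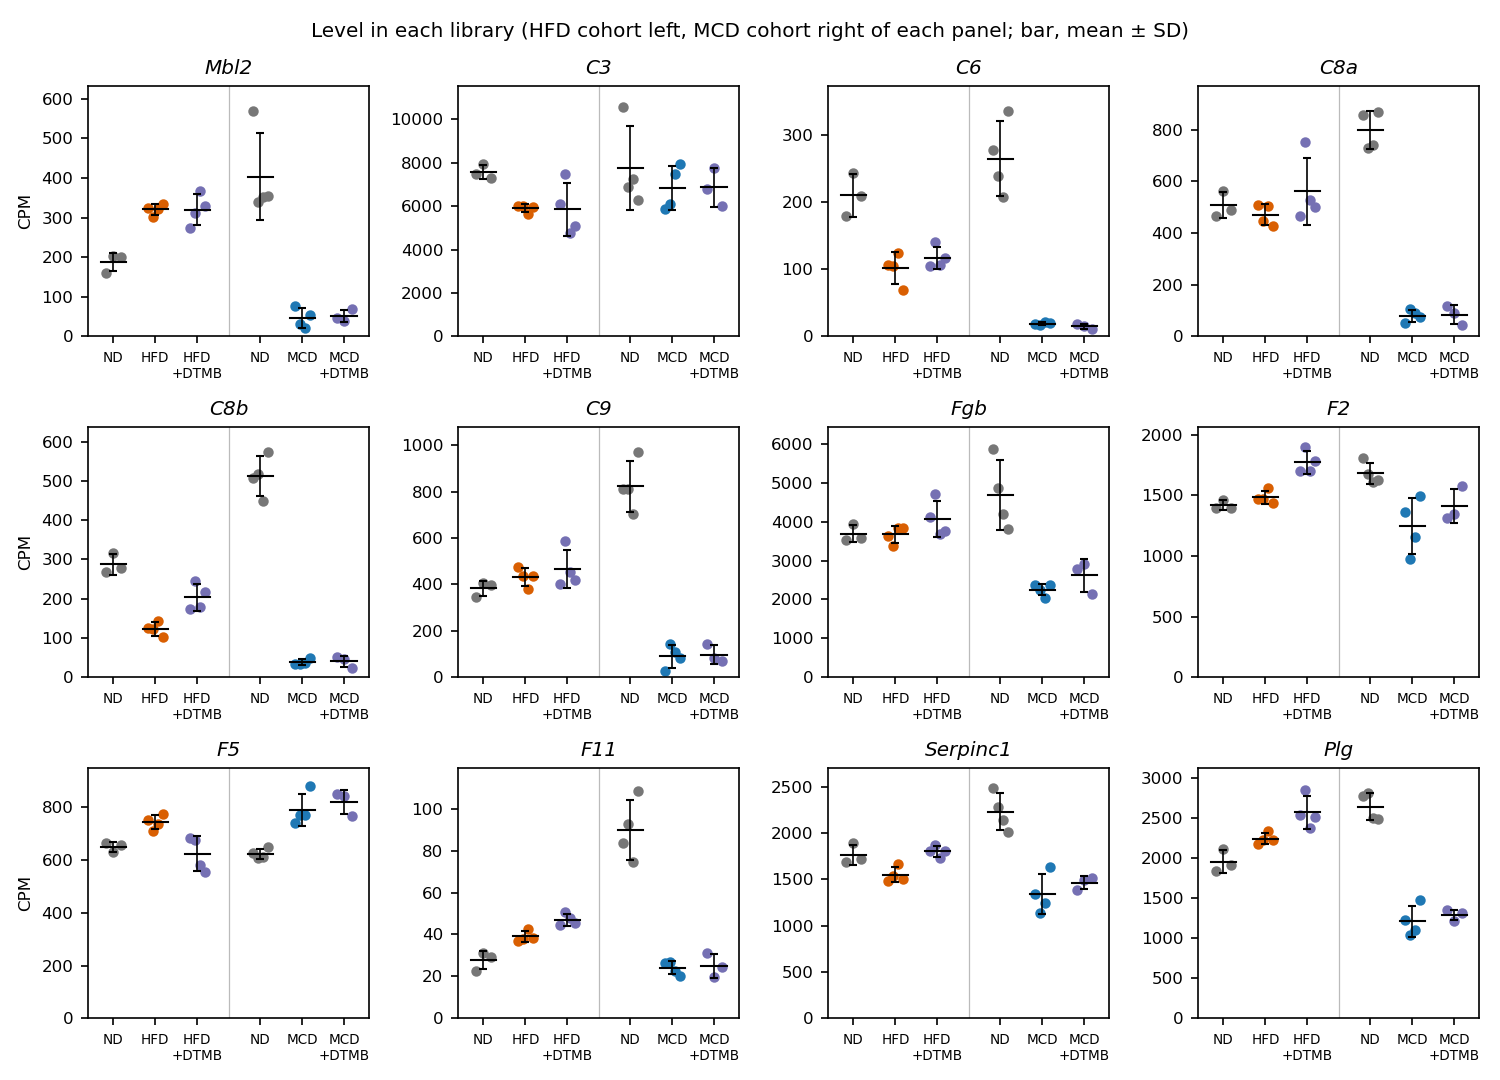
Level (CPM) of 12 members in each library, with mean ± SD, for normal diet (ND), diet with vehicle and diet with DTMB, the HFD cohort left and the MCD cohort right of the line in each panel. C6, C8a, C8b, C9 and Mbl2 are far below normal diet in every MCD library, C3 overlaps between MCD and normal diet, and C8b on HFD is below normal diet, with the DTMB libraries above the vehicle libraries; C8a and F5 were added after their values were seen.

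Printed here are the bases just before the annotated start of the 5 steepest fallers. These genes fell together on MCD, by 3.14 to 3.80 on the log2 scale, while other steps of the pathway fell less. Each line gives the 150 bases before the annotated start on the gene's strand, from the RefSeq promoter table of build GRCm38.p6, and capitals mark matches to the motifs searched. A match on the other strand appears as its reverse complement, so that GTTAAT reads as ATTAAC. For C6, C8a and Mbl2 the start used lies inside the gene span. Most of the bases printed for C6 and C8a, and those nearest the start of Mbl2, therefore lie within the gene. The CTGGGA match of C8a is among them.
C6 (chr15:4727060-4727209, + strand): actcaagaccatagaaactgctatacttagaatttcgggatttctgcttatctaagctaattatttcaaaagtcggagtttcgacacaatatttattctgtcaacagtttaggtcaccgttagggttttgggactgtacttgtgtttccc
C8a (chr4:104876399-104876548, - strand): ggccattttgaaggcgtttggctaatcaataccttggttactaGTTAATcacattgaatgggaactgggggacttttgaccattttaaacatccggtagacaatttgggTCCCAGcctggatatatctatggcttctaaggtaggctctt
C8b (chr4:104766167-104766316, + strand): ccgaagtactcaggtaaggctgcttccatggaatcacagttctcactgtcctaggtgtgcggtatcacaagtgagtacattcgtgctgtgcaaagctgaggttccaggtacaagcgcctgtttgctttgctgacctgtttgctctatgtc
C9 (chr15:6445196-6445345, + strand): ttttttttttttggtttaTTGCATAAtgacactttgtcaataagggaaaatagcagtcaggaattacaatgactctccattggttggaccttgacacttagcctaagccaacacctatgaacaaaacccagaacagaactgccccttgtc
Mbl2 (chr19:30232778-30232927, + strand): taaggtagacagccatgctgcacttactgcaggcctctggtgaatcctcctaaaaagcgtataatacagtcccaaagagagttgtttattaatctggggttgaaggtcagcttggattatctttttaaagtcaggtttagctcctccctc

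The motifs searched, on both strands of the 250 bases before the start, were those of liver and inflammatory factors. They were the full HNF1 site (GTTAAT, any 2 bases, TTAAC) and its first element GTTAAT, which the full site contains, the C/EBP site TTGCNNAA, the HNF4 site CAAAGTCCA, the STAT site TTCNNNGAA, the type II interleukin-6 element CTGGGA and the NF-kB site (GGGA, any base, TTTCC). Of the 37 members, 29 had a promoter in the table. Where a gene had several starts, that of lowest coordinate was used on both strands. For Hc, Masp2, C8g and F7 the start used lay well inside the gene span. It also lay inside the span for F9, F13b and F11, besides C6, C8a and Mbl2. The counts below therefore include matches that lie within the gene span. These are GTTAAT in Hc and F13b, the C/EBP matches in F9 and F11, the STAT matches in Masp2 and F9, and CTGGGA in Masp2, F9 and C8a. The HNF1 element GTTAAT was found in 8 of the 29, against 6.58% of all 27025 promoters, and the C/EBP site in 7, against 9.53%. The STAT site was found in 6, against 7.11%, and CTGGGA in 12, against 26.8%. Of the 29, none held the full HNF1 site (0.0333% of all promoters), the HNF4 letters (0.400%) or the NF-kB letters (0.359%). Of the steep fallers, C8a and C8b held GTTAAT, the latter upstream of the bases printed, and C9 held a C/EBP match at 132 to 125 bases before the start. C8a also held CTGGGA and, upstream of the printed bases, a STAT match, whereas C6 and Mbl2 held none of these letters in 250 bases. The match is a description of these letters and not of a bound site.

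With TMM scaling, fibrinogen fell by close to 2-fold in all of its chains. Its 3 genes lie within one stretch of chromosome 3, with Fga 8.62 kb from Fgb and 11.1 kb from Fgg, and their products join into one protein that thrombin cuts to fibrin. Fgb (chr3:83042246-83049863) was at 5878, 4863, 4197 and 3800.1 CPM on normal diet and at 2373, 2239.8, 2049.5 and 2363 CPM on MCD. The 4 MCD libraries lay close together and below all normal-diet libraries. The change was -1.05 ± 0.16 for Fgb (edgeR, adjusted p = 3.42e-04), -0.94 ± 0.17 for Fga (adjusted p = 0.00122) and -0.93 ± 0.17 for Fgg (adjusted p = 9.85e-04). By library size alone the changes were smaller, at -0.60 for Fgb, -0.49 for Fga and -0.48 for Fgg. The fibrin-stabilising factor XIII B subunit, F13b, changed by -0.81 ± 0.14 (edgeR, adjusted p = 7.63e-04).

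The fibrinogen promoters are printed because the 3 neighbouring genes fell by like amounts on MCD. Source, length and capitals are those given for the terminal components.
Fga (chr3:83026003-83026152, + strand): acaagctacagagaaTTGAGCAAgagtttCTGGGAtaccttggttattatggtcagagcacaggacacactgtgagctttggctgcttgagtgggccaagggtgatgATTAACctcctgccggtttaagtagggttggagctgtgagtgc
Fgb (chr3:83049864-83050013, - strand): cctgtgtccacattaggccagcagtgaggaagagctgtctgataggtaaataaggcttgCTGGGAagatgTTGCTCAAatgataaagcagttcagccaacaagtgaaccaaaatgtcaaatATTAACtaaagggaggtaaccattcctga
Fgg (chr3:83007574-83007723, + strand): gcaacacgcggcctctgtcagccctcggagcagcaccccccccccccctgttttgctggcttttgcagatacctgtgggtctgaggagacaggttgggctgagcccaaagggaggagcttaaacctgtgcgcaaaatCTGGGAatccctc

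Fga and Fgb each held GTTAAT, a C/EBP match, a STAT match and CTGGGA within 250 bases. In Fga GTTAAT lay 43 to 38 bases before the start and the C/EBP match 135 to 128 bases before it. In Fgb they lay at 29 to 24 and at 80 to 73 bases. Fgg held CTGGGA alone, at 13 to 8 bases before the start.

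Among the proteases that generate thrombin, 3 of 5 fell and F5 rose. F2 (chr2:91612397-91636457), prothrombin, was at 1806, 1679, 1613 and 1629.5 CPM on normal diet and 1367, 973, 1157 and 1497 CPM on MCD. The highest MCD library, replicate 4, came near the lowest normal-diet library without reaching it, and the change was -0.43 ± 0.14 (edgeR, adjusted p = 0.0282). F7, which starts coagulation with tissue factor, fell more (-1.07 ± 0.13, adjusted p = 8.02e-05), F10, which forms the prothrombin-cleaving enzyme, fell less (-0.62 ± 0.14, adjusted p = 0.00397), and F9 changed by -0.32 ± 0.13 without passing (adjusted p = 0.0654). F5, the cofactor of that enzyme, was the exception, at 626, 608, 611 and 651 CPM on normal diet and 739, 771, 772 and 879.9 CPM on MCD. The groups did not overlap and the change was 0.34 ± 0.096 (edgeR, adjusted p = 0.0144).

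In the contact system, which starts coagulation on charged surfaces, 3 of 4 members fell. F11 (chr8:45240659-45262055), the protease that activates factor IX, was at 83.6, 92.8, 74.7 and 108 CPM on normal diet and 26.5, 26.9, 22.5 and 20.4 CPM on MCD. The MCD libraries were all below the normal-diet libraries, with a change of -1.90 ± 0.16 (edgeR, adjusted p = 6.25e-06). Its neighbour on chromosome 8, the prekallikrein gene Klkb1, 4.63 kb away, changed by -1.63 ± 0.11 (adjusted p = 1.23e-06), and F12 by -0.42 ± 0.11. The kininogen gene Kng1, whose reads may be shared with its paralog Kng2, changed by -0.098 ± 0.12 and did not pass (edgeR, adjusted p = 0.553).

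Of the coagulation inhibitors 3 of 4 fell. Serpinc1 (chr1:160978583-161002543), antithrombin, was at 2481, 2281, 2144 and 2015 CPM on normal diet and 1345, 1136, 1245 and 1637 CPM on MCD. Replicate 4 was the highest MCD library, and the groups did not overlap; the change was -0.73 ± 0.13 (edgeR, adjusted p = 0.00104). Protein C, Proc, changed by -0.94 ± 0.12 and heparin cofactor II, Serpind1, by -0.59 ± 0.16, while Pros1, the protein S gene, whose product is the cofactor of protein C, changed by -0.36 ± 0.18 and did not pass (edgeR, adjusted p = 0.137).

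In fibrinolysis 4 of 4 fell, on both sides of the balance. Plg (chr17:12378609-12419384) was at 2768, 2805, 2498 and 2485 CPM on normal diet and 1222, 1040.3, 1099 and 1476 CPM on MCD. All MCD libraries were far below normal diet, and the change was -1.13 ± 0.13 (edgeR, adjusted p = 4.99e-05). Cpb2, the carboxypeptidase that protects fibrin from plasmin, changed by -1.38 ± 0.13, the plasmin inhibitor Serpinf2 by -0.98 ± 0.17, and Vtn, which stabilises the plasminogen activator inhibitor PAI-1, by -1.01 ± 0.15.

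These calls depended in part on how libraries were scaled. TMM factors were 0.785 to 0.894 in normal-diet and 1.03 to 1.21 in MCD vehicle libraries. Scaled by library size alone, the median of all genes tested moved to 0.47 in this comparison and the members' median to -0.49, with 23 members lower and 2 higher, F5 and Kng1. Under that scaling Masp1, C3, Cfb, Cfi, F2, F9, F12, Kng1 and Pros1 took the opposite sign, at 0.020 to 0.36 on the log2 scale, while the 6 terminal components, the 3 fibrinogen chains, Mbl2, F11 and Plg stayed lower. Of the members called lower with TMM, Serpinc1, C2, F10 and Serpind1 kept their sign by library size but lost their calls, at adjusted p = 0.0547, 0.0735, 0.21 and 0.357 in edgeR's test. The members' median lay below that of all genes under both scalings. Shares of all genes called higher and lower were taken in the main TMM run alone. Counts under other settings, here and below, are therefore given without such shares.

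**Figure D3:**
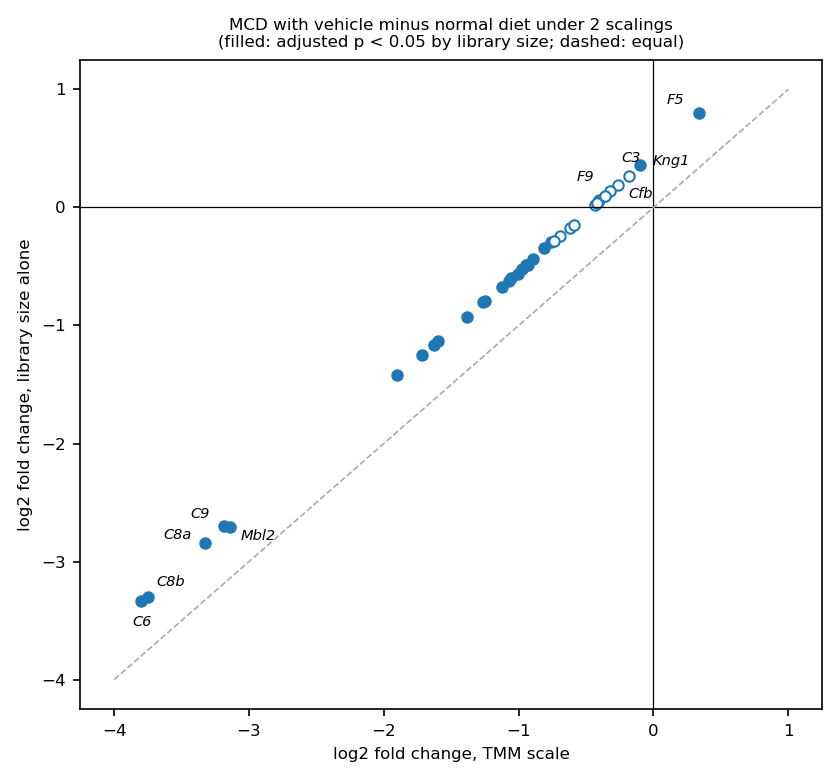
Log2 fold change of the 37 members on MCD against normal diet with TMM scaling (horizontal) and with library size alone (vertical), points filled where the adjusted p was under 0.05 by library size. All points lie above the dashed line of equality, and C6, C8a, C8b, C9 and Mbl2 stand apart at the lower left under both.

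Other genes of the 2 pathways, from lists of 30 complement and 31 coagulation genes, moved both ways on MCD. Of 28 complement genes tested, 7 were higher and 9 lower, and by library size alone 11 were higher and 4 lower. Of 8 regulators 4 were lower (2 lower and 2 higher by library size alone), among them the C1 inhibitor Serping1 (-1.81 ± 0.15, adjusted p = 6.05e-06), and the list of serine proteases and components had 5 of 6 lower (2 by library size alone). Complement receptors had 5 of 6 tested higher, led by the integrin chain Itgax (4.15 ± 0.44, adjusted p = 2.80e-05); edgeR's quasi-likelihood test gave these p-values. Receptors of this kind are known from myeloid cells. Of 28 coagulation genes tested, 10 were higher and 7 lower, and by library size alone 16 were higher and 6 lower. Those of smallest p with TMM were all lower: the tissue factor pathway inhibitor 2 gene Tfpi2 (-1.19 ± 0.084), protein Z, Proz (-1.10 ± 0.11), and the vitamin K-dependent carboxylase Ggcx (-1.19 ± 0.12), which modifies prothrombin and its relatives.

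**Figure D4:**
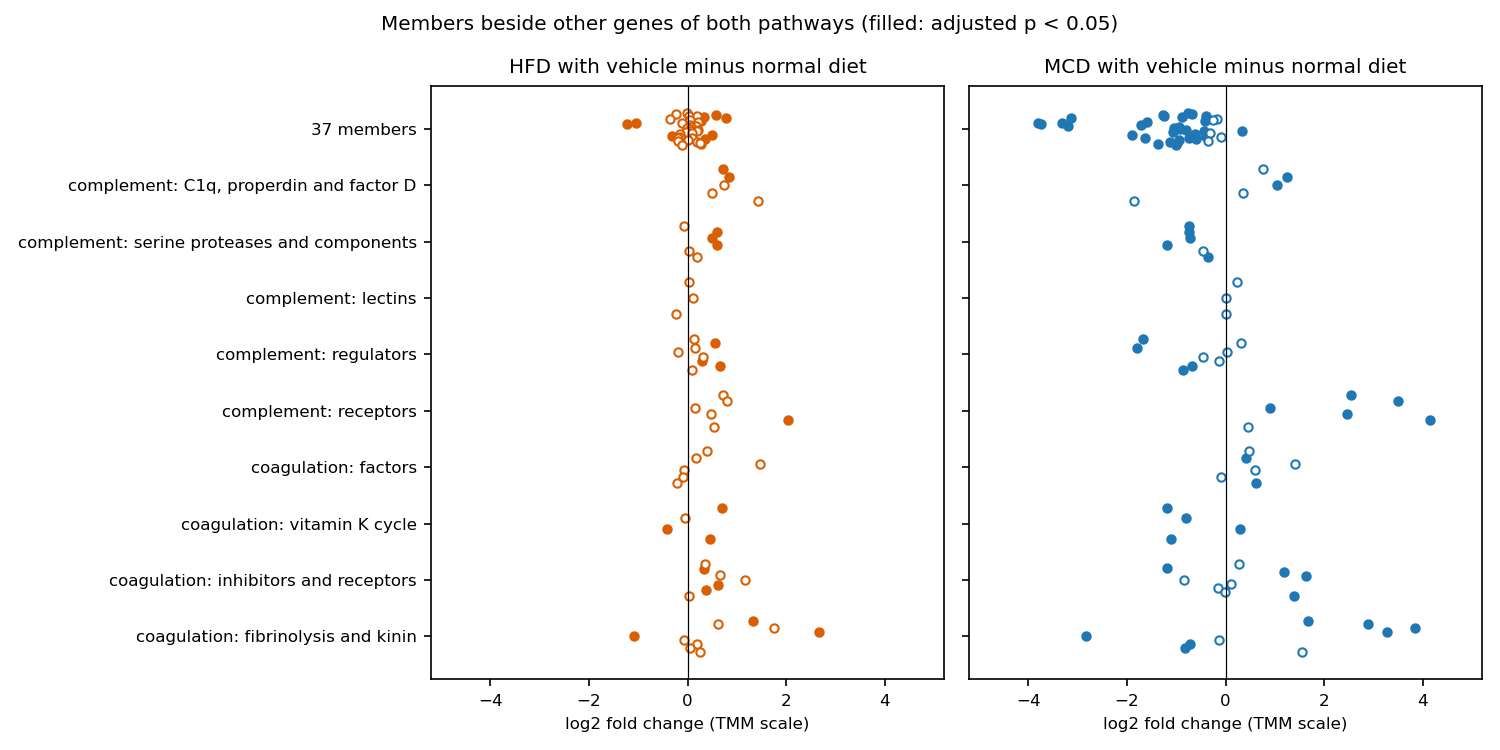
Log2 fold changes of the 37 members and of other complement and coagulation genes, by list, on HFD (left) and MCD (right) against normal diet, filled where the adjusted p was under 0.05. On MCD the members and the serine protease list lie mostly left of 0, whereas 5 complement receptors are filled to the right, up to 4.15 for Itgax.

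Transcription factors and inflammatory signals of hepatocytes were listed too. Of 20 hepatocyte transcription factors, 2 were higher and 7 lower on MCD, those of smallest p being Cux2 (4.13 ± 0.57), a factor of female-typical liver expression, Stat5b (-0.75 ± 0.11), which transmits the growth hormone signal, and Foxa3 (-0.85 ± 0.15). Of 18 genes of the interleukin-6 receptor, its feedback and the acute phase, 6 were higher and 1 lower, led by Lcn2 (5.92 ± 0.63), Apcs (3.43 ± 0.40) and the oncostatin M receptor Osmr (1.29 ± 0.22). The count of factors depended on the scaling: by library size alone 7 were higher and 1 lower, and for the interleukin-6 list 13 were higher and 0 lower.

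Markers of cell types and of sex-biased liver expression moved with the MCD diet. Of 12 hepatocyte markers 6 were lower and 0 higher, and their summed level was 108936 to 139929 CPM on normal diet and 90244 to 128078 CPM on MCD, which overlap; by library size alone 3 were higher and 4 lower. The 10 macrophage markers had 4 higher, with sums of 92.9 to 374 and 293 to 822 CPM (7 higher by library size alone). Among them Gpnmb was at 0.302 ± 0.387 CPM on normal diet and 206 ± 97.3 CPM on MCD (SD, n = 4), whereas the resident macrophage markers Clec4f (58.8 ± 40.1 and 49.99 ± 20.7 CPM) and Timd4 (4.16 ± 3.39 and 1.95 ± 0.544 CPM) were not called. The 8 stellate and fibroblast markers had 4 higher, with sums of 144 to 336 and 397 to 678 CPM. Neutrophil markers had 4 of 4 tested higher, at sums of 0.216 to 0.775 and 1.34 to 3.86 CPM, with 2 of the 6 listed at 0 in all normal-diet libraries. Of 11 male-biased liver genes 11 were lower, from sums of 25898 to 82851 CPM to 2572 to 3989 CPM, and of 10 female-biased genes tested 9 were higher. The part of any of these in the members' changes was not tested.

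On the high-fat diet 7 of the 37 members rose and 3 fell. Among all 15597 genes tested 27.8% were called, 15.2% higher and 12.6% lower, so the members' shares were near the background. Their median log2 fold change was 0.054, against 0.015 for all genes, and their range -1.22 to 0.77. Groups did not overlap for 9 members higher and 6 lower, against 19.0% and 17.0% of all genes. The summed level was 35205 ± 1890 CPM (SD, n = 3) on normal diet and 34542 ± 685 CPM (SD, n = 4) on HFD.

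On HFD the falls in the terminal pathway were in C8b and C6. C8b was at 267, 317 and 277 CPM in the 3 normal-diet libraries and at 125, 122, 144 and 102 CPM in the 4 HFD vehicle libraries. Every HFD library was below every normal-diet library, and the change was -1.22 ± 0.14 (edgeR's quasi-likelihood test, adjusted p = 9.46e-05). C6 was at 179, 243 and 208 CPM on normal diet and 107, 105, 125 and 68.4 CPM on HFD, again without overlap, and changed by -1.05 ± 0.18 (edgeR, adjusted p = 0.00123). The other 4 terminal components were not called: C8a, which lies 11.1 kb from C8b, changed by -0.11 ± 0.15 and C9 by 0.17 ± 0.12. C9 was at 348, 405 and 398 CPM on normal diet and 476, 436, 379 and 436 CPM on HFD, and these ranges overlapped.

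Both mannose-binding lectin genes rose on HFD, while of 3 other lectins of the pathway tested 0 were called. Mbl2 was at 161, 204 and 199 CPM on normal diet and 324, 301, 322 and 335 CPM on HFD. All HFD libraries were higher than all normal-diet libraries, and the change was 0.77 ± 0.11 (edgeR, adjusted p = 3.58e-04). Mbl1 (0.34 ± 0.11, adjusted p = 0.0422), whose libraries overlapped between the groups, and C4b (0.58 ± 0.13, adjusted p = 0.00558) also rose in edgeR's test, as did Cfi (0.27 ± 0.086, adjusted p = 0.037). C3 was at 7478, 7948 and 7292 CPM on normal diet and 6017, 6010.2, 5619 and 5950.5 CPM on HFD, without overlap, but its change of -0.36 ± 0.13 did not pass (edgeR, adjusted p = 0.0577).

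Of the coagulation members on HFD, F11 was at 22.8, 31.0 and 29.1 CPM on normal diet and 36.98, 38.1, 42.7 and 38.5 CPM on HFD. HFD libraries were all higher, and the change was 0.50 ± 0.10 (edgeR, adjusted p = 0.00391). Serpind1 (0.36 ± 0.078, adjusted p = 0.00581) and Cpb2 (0.27 ± 0.088, adjusted p = 0.0378) rose and F12 fell (-0.31 ± 0.077, adjusted p = 0.011) in edgeR's test. Fibrinogen and thrombin-generating factors had 0 calls among 9 members. Fgb was at 3531, 3944 and 3593 CPM on normal diet and 3640.4, 3379, 3849 and 3836 CPM on HFD. F2 was at 1395, 1467 and 1401 CPM on normal diet and 1469, 1469, 1562 and 1437 CPM on HFD, and both genes overlapped between the groups. Plg was at 1843, 2115 and 1907 CPM on normal diet and 2178, 2225, 2337 and 2221 CPM on HFD, higher in each HFD library but not called (0.20 ± 0.078, adjusted p = 0.0812). Serpinc1 was at 1687, 1888 and 1719 CPM on normal diet and 1488, 1539, 1669 and 1504 CPM on HFD, lower in each HFD library and not called (-0.19 ± 0.068, adjusted p = 0.06).

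These HFD calls rested on few libraries. Without the libraries above 100 CPM of acinar transcripts, which leaves 1 normal-diet library, 0 members were higher and 2 lower, C6 and C8b. Leaving out 1 library at a time gave 4 to 9 higher and 2 to 4 lower, with 4 higher without normal-diet replicate 1 and 4 without HFD vehicle replicate 1. By library size alone 13 were higher and 2 lower. C6 and C8b kept their calls in each alternative run.

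Other genes of the pathways on HFD had 9 of 28 complement genes higher and 0 lower, led by the C1s protease C1s1 (0.59 ± 0.066) and the membrane regulator Cd59a (0.65 ± 0.10), and 7 of 26 coagulation genes higher and 2 lower, led by Ggcx (0.70 ± 0.092). With library size alone the counts were 12 higher and 0 lower, and 10 higher and 2 lower. Of 18 interleukin-6 and acute phase genes 9 were higher and 1 lower, with Lcn2 at 3.80 ± 0.53, Saa2 at 3.64 ± 0.64 and Saa1 at 3.08 ± 0.69. Of the hepatocyte factors 3 were higher and 5 lower, with Cebpe at 1.91 ± 0.16, Stat5a at 0.63 ± 0.078 and Hnf4a, which drives many clotting factor genes, at -0.55 ± 0.073. Beside them, 5 of 11 male-biased genes were lower, with sums of 30531 to 39985 CPM on normal diet and 13628 to 24330 CPM on HFD, 4 of 10 macrophage markers were higher, 3 of 8 stellate and fibroblast markers were higher, 5 of 10 female-biased genes were higher and 3 lower, and 2 of 12 hepatocyte markers were higher and 4 lower. Their part in the members' changes was not tested.

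With DTMB on HFD, 8 of 37 members were higher and 1 lower than with vehicle. Over all 15597 genes 12.7% were called, 6.64% higher and 6.04% lower. The members' median was 0.14 against -0.015 for all genes, and their range -0.27 to 0.72. Groups did not overlap for 11 members that were higher and 2 that were lower with DTMB, against 10.5% and 9.35% of all genes. This comparison and the diet comparison share the HFD vehicle libraries, so their values are given side by side and not compared.

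Of the terminal components 2 of 6 were higher with DTMB, C8b and C8g, which had the 2 largest changes among the called members. C8b was at 125, 122, 144 and 102 CPM with vehicle and 173, 246, 178 and 218 CPM with DTMB. All DTMB libraries were above all vehicle libraries and below all normal-diet libraries, and the change was 0.72 ± 0.13 (edgeR's quasi-likelihood test, adjusted p = 0.0106). C8g, the small lipocalin-type chain of C8, was at 206, 226 and 218 CPM on normal diet, 220.0, 239, 238 and 202 CPM with vehicle and 279, 308, 346 and 342 CPM with DTMB. The DTMB libraries were highest and vehicle overlapped normal diet; the change was 0.50 ± 0.083 (edgeR, adjusted p = 0.00987). C6 was at 105, 140.2, 107 and 117 CPM with DTMB, which overlapped vehicle (0.21 ± 0.17, adjusted p = 0.417), and C9 at 403, 585, 455 and 419.8 CPM, with overlap as well (0.11 ± 0.11).

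Thrombin-generating factors and coagulation inhibitors made up the other calls on DTMB. F2 was at 1701, 1902, 1700.3 and 1787 CPM with DTMB, above every vehicle library, with a change of 0.26 ± 0.06 (edgeR, adjusted p = 0.0218). F7 changed by 0.32 ± 0.081, F10 by 0.22 ± 0.063 and Proc by 0.28 ± 0.072. Serpinc1 was at 1803, 1871, 1731 and 1803 CPM with DTMB, again above every vehicle library (0.22 ± 0.064, adjusted p = 0.0447, edgeR), and Serpind1 rose by 0.29 ± 0.072. F5 fell (-0.25 ± 0.075, adjusted p = 0.0458, edgeR). Adjusted p for these calls ran up to 0.0458.

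Members with no call under DTMB on HFD included the whole lectin, classical and central groups. Mbl2 was at 275, 311, 366 and 329 CPM with DTMB and C3 at 6117, 7481, 4760.2 and 5082 CPM, both overlapping vehicle, with changes of -0.0021 ± 0.097 and -0.0096 ± 0.12. Fgb was at 4117, 4711, 3693 and 3759.9 CPM, F11 at 44.4, 50.8, 47.7 and 45.3 CPM and Plg at 2534, 2854, 2375 and 2512 CPM. F11 and Plg were above every vehicle library without passing the test (adjusted p = 0.0759 and 0.0895, edgeR), and Fgb overlapped.

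The DTMB calls on HFD were sensitive to single libraries and to scaling. The acinar libraries of this cohort were normal-diet replicates 1 and 3, vehicle replicates 1 and 4 and DTMB replicate 3. Fewer libraries were thus left for the test without them. Without the acinar libraries 0 members were called in either direction. Leaving out 1 library gave 2 to 8 higher: 2 without vehicle replicate 1, 3 without vehicle replicate 2, 2 without vehicle replicate 4, 2 without DTMB replicate 2, 4 without DTMB replicate 3 and 2 without DTMB replicate 4. C8b and C8g kept their calls with each single library left out, and F5 lost its call without normal-diet replicate 3, without each vehicle replicate, and without DTMB replicate 3 or 4. By library size alone the median of all genes was -0.17, and 2 members were higher and 4 lower. Beside the members, higher levels were called for 5 of 12 hepatocyte markers and 5 of 11 male-biased genes, and lower levels for 3 of 8 stellate and fibroblast markers. Summed hepatocyte markers were 99250 to 117216 CPM with vehicle and 117734 to 124804 CPM with DTMB, which do not overlap, and their part was not tested. Of the hepatocyte factors Stat5a fell (-0.46 ± 0.071) and Cebpa (0.40 ± 0.069) and Hnf4a (0.37 ± 0.068) rose. By library size alone the hepatocyte markers had 3 higher and 1 lower, and the 20 factors 2 higher and 4 lower, against 3 higher and 1 lower with TMM. Of the other pathway genes 0 of 28 complement genes were higher and 1 lower, Itgax (-1.70 ± 0.43), and 4 of 26 coagulation genes were higher and 3 lower, led by Mcfd2, a subunit of a transport receptor of clotting factors (0.38 ± 0.082). These counts by library size alone were 0 higher and 4 lower, and 2 higher and 4 lower.

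With DTMB on the MCD diet, 0 of 37 members were called in edgeR's quasi-likelihood test, with 0 at an unadjusted p under 0.05, and DESeq2 also called 0. Over all 16037 genes tested 0.00624% were called, which is 1 gene, while 857 were at an unadjusted p under 0.05 and DESeq2 called 13. The members' changes lay between -0.34 and 0.25 with a median of 0.10, and all 37 overlapped between the groups, against 2.59% of genes higher and 3.27% lower without overlap. C6 was at 18.4, 15.3 and 11.3 CPM with DTMB and C8b at 51.2, 46.0 and 24.1 CPM, changes of -0.34 ± 0.19 and 0.088 ± 0.23. C9 was at 143, 81.6 and 69.9 CPM and Mbl2 at 46.0, 39.5 and 69.1 CPM. Mbl2 lay within the range of the MCD vehicle libraries and C9 overlapped it. C3 was at 6813, 7778 and 6013 CPM, Fgb at 2792, 2924 and 2142 CPM and F2 at 1317, 1344 and 1574 CPM. F11 was at 31.1, 19.5 and 24.3 CPM, Serpinc1 at 1384, 1494 and 1517 CPM and Plg at 1347, 1220.2 and 1308 CPM. With 3 DTMB libraries, the SE of a member ran from 0.095 for Masp1 to 0.42 for C9. Changes within such errors were not detectable, and changes somewhat beyond them could also be missed.

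The DTMB groups were also set against normal diet, with the same normal-diet libraries as in the diet comparisons. On HFD with DTMB 14 members were higher and 4 lower (of all genes 29.2% were called, 15.7% higher and 13.5% lower), with 16 higher and 3 lower without overlap (18.9% and 16.5%). Those of smallest p were Serpind1 (0.64 ± 0.079), F11 (0.77 ± 0.10), Mbl2 (0.77 ± 0.11), C8g (0.56 ± 0.09), Plg (0.39 ± 0.079), F2 (0.32 ± 0.065), Pros1 (-0.47 ± 0.097), C6 (-0.84 ± 0.18), Cpb2 (0.39 ± 0.088) and Mbl1 (0.49 ± 0.11). C8b was still lower than on normal diet (-0.50 ± 0.14, adjusted p = 0.0178, edgeR's quasi-likelihood test). Without the acinar libraries 2 were higher and 2 lower, and without normal-diet replicate 1 the count higher was 8; without normal-diet replicate 2 the count lower was 2.

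On MCD with DTMB 26 members were lower and 1 higher (of all genes 32.6% were called, 16.4% lower and 16.2% higher), with 33 lower and 1 higher without overlap (22.4% and 21.7%). C6 (-4.14 ± 0.22), C8b (-3.66 ± 0.26), Klkb1 (-1.42 ± 0.12), Hc (-1.50 ± 0.14), F11 (-1.85 ± 0.18), C8g (-1.47 ± 0.15), C8a (-3.25 ± 0.33), Cpb2 (-1.26 ± 0.14), Masp2 (-1.15 ± 0.13) and C4b (-1.29 ± 0.17) had the smallest p, from 4.86e-07 to 1.97e-04 after adjustment in edgeR. The single rise was F5 (0.39 ± 0.10), which lost its call without DTMB replicate 1, where 0 members were higher.

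The difference between the diets was tested in one fit over all 22 libraries, as the HFD change minus the MCD change within each cohort. It was positive and called for 30 of 37 members and negative for 0, while of 16541 genes tested 35.3% were called, 18.5% positive and 16.8% negative. The members' median difference was 0.98 and that of all genes -0.014. F11 differed by 2.37 ± 0.20 (edgeR's quasi-likelihood test, adjusted p = 3.97e-08), having risen on HFD and fallen on MCD. Mbl2, Mbl1, C4b, Serpind1, Cfi and Cpb2 were likewise called higher on HFD and lower on MCD, with Mbl2 differing by 3.88 ± 0.43 (adjusted p = 8.96e-07). C6 and C8b were lower on both diets, and their falls were deeper on MCD, by 2.72 ± 0.26 and 2.50 ± 0.27 (adjusted p = 1.66e-07 and 6.67e-07). C8a, which was lower on MCD and not called on HFD, differed by 3.19 ± 0.34, and C9 by 3.33 ± 0.47. The fibrinogen chains differed by 0.94 to 1.02. The 7 members with no call were C3, Cfb, F5, F9, F12, Kng1 and Pros1, among them C3 at -0.21 ± 0.23 (adjusted p = 0.527). By library size alone the count was 24 higher and 2 lower. Cohort and diet cannot be told apart in the levels or in the difference between the diets, since the diets were fed in different cohorts.

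No difference between the DTMB changes on the 2 diets passed edgeR's test: 0 of 37 members were called, with 3 at an unadjusted p under 0.05, and 0% of all genes were called, with 1415 at an unadjusted p under 0.05; DESeq2 called 0 members and 38 genes. F5 (-0.29 ± 0.11, adjusted p = 0.484) and C8b (0.66 ± 0.26, adjusted p = 0.51) had the smallest p.

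For members that neighbour each other on a chromosome the values are set side by side, and differences between neighbours were not tested. F11 and Klkb1 both fell on MCD, and on HFD F11 rose while Klkb1 changed by 0.099 ± 0.13 (edgeR, adjusted p = 0.62). F7 and F10, 1499 bases apart on chromosome 8, changed by -1.07 ± 0.13 and -0.62 ± 0.14 on MCD and by 0.32 ± 0.081 and 0.22 ± 0.063 with DTMB on HFD. C2 and Cfb lie 0.088 kb apart on chromosome 17, with C4b 112 kb from Cfb, and on MCD they changed by -0.69 ± 0.11, -0.26 ± 0.15 and -1.26 ± 0.16. C8a and C8b changed by -3.32 ± 0.30 and -3.75 ± 0.23 on MCD and on HFD by -0.11 ± 0.15 and -1.22 ± 0.14. Fga, Fgb and Fgg changed by -0.94 ± 0.17, -1.05 ± 0.16 and -0.93 ± 0.17 on MCD, and by -0.11 ± 0.082, 0.15 ± 0.087 and 0.19 ± 0.082 with DTMB on HFD, where none was called.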

How the data were processed

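Per the labels' protocols, RNA with an integrity number above 7.0 was made into strand-specific polyA libraries. The deposited tables, 1 per cohort, hold raw read counts per gene, as the file headers and whole-number values show. The submitters' processing notes name build mm10, HISAT2 2.1.0, Trimmomatic 0.38, StringTie 2.1.3b and FastQC 0.11.7, while the sources used here do not state settings, use of strand in counting or treatment of reads shared between copies. The labels number the libraries as biological replicates, and the p-values set differences between groups against the spread between these replicates.

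Counts were tested here in R 4.3.3 with edgeR 4.0.16 (defaults of filterByExpr, TMM and the quasi-likelihood F test), each cohort fitted alone with its 3 groups, and both together for differences between cohorts. Benjamini-Hochberg adjustment ran over all genes tested, with calls at 0.05 and no fold cutoff, and the SE came from the coefficient and its F statistic. The procedure was tested on simulated counts, which held no shift in RNA composition and so do not bear on the choice of scaling. Exon lengths for levels per kb were the union of exons in the reference annotation of GRCm38, and positions and promoters came from RefSeq GRCm38.p6, whose table matched 37 of 37 members and 45679 of 45777 genes. Promoters of Kng1, C4b, Proc, Cfb, Cfi, C2, Masp1 and Plg were not analysed here.

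The members and lists were chosen with earlier results of these data known. Called members were named up to the 10 of smallest p per comparison, values of each library were given for the 2 called members of smallest p and the 2 of largest change and for C3, C9, C8b, Mbl2, Fgb, F2, F11, Serpinc1 and Plg, and of each other list up to 3 called genes of smallest p. One gene that this rule names is not reported here. F5 and C8a were added after their values were seen. Other settings were DESeq2 1.42.0, limma-voom with quality weights (limma 3.58.1), RLE factors, library size alone, other count filters, other sets of libraries, a fold cutoff, a replicate block and leaving out libraries. Libraries of a group that share a replicate number did not pair across groups: deviations from group means correlated at -0.444 to 0.339 (HFD) and -0.269 to 0.0826 (MCD). No library repeated another of its group, the lowest chi-square over its degrees of freedom being 26.1. Figures were drawn with matplotlib 3.10.9.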

Additional observations from a re-analysis of the deposited data

Results flagged for a closer look

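Single libraries stood apart from the others of their group, by the gap to the nearest library over the group's range, in 8 of 148 groups of 4 examined, where chance alone would flag about 1 in 20. C4b was at 1351 CPM in MCD-cohort normal-diet replicate 2, against 1010.5 to 1064 CPM in the other 3 libraries. Masp1 was at 92.0 CPM in HFD vehicle replicate 4, against 74.7 to 76.8 CPM in the other 3 libraries. Mbl2 was at 569 CPM in MCD-cohort normal-diet replicate 1, against 339 to 355 CPM in the other 3 libraries. C3 was at 5619 CPM in HFD vehicle replicate 3, against 5950.5 to 6017 CPM in the other 3 libraries. Cfb was at 1162 CPM in MCD-cohort normal-diet replicate 1, against 1041 to 1059.8 CPM in the other 3 libraries. C8b was at 49.2 CPM in MCD vehicle replicate 4, against 33.2 to 35.8 CPM in the other 3 libraries. F13b was at 169 CPM in MCD vehicle replicate 4, against 125 to 132 CPM in the other 3 libraries. Serpind1 was at 624 CPM in MCD vehicle replicate 4, against 386 to 390.0 CPM in the other 3 libraries. The change of C3 on MCD without that cohort's normal-diet replicate 1 was 0.0082 on the log2 scale.

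The diet changes of 30 members differed between the cohorts in edgeR's interaction test, each with a higher log2 fold change on HFD than on MCD. In the classical and lectin pathways the difference was 1.42 for Masp2, 3.88 for Mbl2, 1.82 for C4b, 1.20 for Mbl1, 0.71 for C1ra, 0.41 for Masp1 and 0.42 for C2. In the central pathway the difference was 0.65 for Cfi. Among the terminal components the difference was 1.74 for C8g, 1.78 for Hc, 2.72 for C6, 2.50 for C8b, 3.19 for C8a and 3.33 for C9. For fibrinogen and fibrin cross-linking the difference was 0.99 for F13b, 1.02 for Fgb, 0.98 for Fga and 0.94 for Fgg. Of the thrombin-generating factors the difference was 1.02 for F7, 0.46 for F2 and 0.44 for F10. In the contact system the difference was 2.37 for F11 and 1.70 for Klkb1. Among the inhibitors the difference was 0.91 for Proc, 0.92 for Serpind1 and 0.52 for Serpinc1. In fibrinolysis the difference was 1.62 for Cpb2, 1.29 for Plg, 1.20 for Serpinf2 and 0.87 for Vtn.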

How the results depend on the processing

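For the MCD diet, 31 members lower became 23 to 34 over all settings without a fold cutoff and 29 to 33 with 1 library left out, and 1 stayed higher with any 1 library left out. Counts on MCD were unchanged without the acinar library. By library size alone 2 members were higher on MCD, 2 were higher with DTMB against normal diet and 2 were negative in the diet difference, and these log2 fold changes on MCD took the opposite sign: Masp1 0.063, C3 0.27, Cfb 0.19, Cfi 0.043, F2 0.020, F9 0.14, F12 0.038, Kng1 0.36 and Pros1 0.100; C3 ranged from -0.27 to 0.0082 with 1 library left out, the latter without normal-diet replicate 1. The shift of all genes under that scaling is given in the report, and the cause was not tested. A cutoff of 0.58 on the absolute log2 fold change left 0 higher in both MCD comparisons, since F5 changed less.

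Counts of the HFD cohort moved more. HFD diet, 7 higher and 3 lower: higher 13 by library size alone, 4 with the replicate block, 2 with all 22 libraries in 1 fit, 2 with the fold cutoff and 0 without the acinar libraries; lower 7 by DESeq2, 5 by limma-voom and 6 with RLE factors. HFD DTMB, 8 higher and 1 lower: higher 2 by library size alone, 5 without a count filter, 4 with the replicate block, 2 with 22 libraries, 1 with the fold cutoff and 0 without the acinar libraries; lower 2 by DESeq2, by limma-voom and with the stricter filter, 4 by library size alone, and 0 with the block, with 22 libraries, with the fold cutoff and without the acinar libraries. HFD DTMB against normal diet, 14 higher and 4 lower: 7 and 2 with 22 libraries, 3 and 1 with the fold cutoff, and 2 and 2 without the acinar libraries. One library left out gave 4 to 9 higher and 2 to 4 lower for HFD diet, 2 to 8 and 0 to 1 for HFD DTMB, 8 to 15 and 2 to 6 for HFD DTMB against normal diet, 26 to 29 lower and 0 to 1 higher for MCD DTMB against normal diet, and 28 to 32 for the diet difference. Without the acinar libraries the DTMB changes on HFD were 0.67 for C8b and 0.37 for C8g, neither called.

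Libraries share only a replicate number. With it as a block the counts on MCD were 31 lower and 1 higher, and no direction changed. For single genes, values were followed over all settings for members called in the main run and, on the MCD diet, for every member. Of these values 206 lost and 7 gained a call, 2798 kept both, and 10 changed sign. Gains and sign changes of members without a call in the other comparisons were not counted. With 3 or 4 libraries a group, small changes were not detectable, most of all for C9 and Mbl2 on MCD, whose libraries spread most.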

Other observations

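Other marker lists described the livers in which the members were measured. Of 5 erythroid transcripts tested on MCD, 5 were lower, and of 8 lymphocyte markers 3 were lower and 0 higher. Of the 5, 1 was lower by library size alone, and 3 lymphocyte markers were higher and 3 lower. Platelet and megakaryocyte markers summed to 1.44 to 2.51 CPM on normal diet and 2.101 to 3.68 CPM on MCD, with 1 of 3 tested higher, Pf4 (2 by library size alone). Immediate-early genes, which respond to tissue handling, had 6 of 12 higher on each diet (8 on MCD by library size alone). With DTMB on HFD, 3 of these 12 were lower and 1 higher. The summed level of the 37 members with DTMB was 36749 ± 3638 CPM on HFD (SD, n = 4), with replicate 2 the highest at 42032 CPM, and 28210 ± 1932 CPM on MCD (SD, n = 3).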
